A study of Sus scrofa with 12 samples.

Results

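TPM1 and TPM2 (tropomyosins), ACTC1 (cardiac alpha-actin), CFL2 (the muscle cofilin) and CNN1 (calponin) are genes whose proteins form, line or remodel actin filaments. Every row of the deposited m6A peak lists whose assigned gene was one of these 5 was taken, which gave 35 of 13487 peaks and 5 of 2159 genes with a peak. The lists come from longissimus dorsi, the back muscle along the spine, of 5-day-old pigs: Large White, bred for fast, lean growth, and Ningxiang, an indigenous Chinese pig. Each breed had 3 replicates, with an antibody-enriched and an input library for each, and 1 peak list per replicate. Peaks on the 5 genes numbered 7, 7 and 8 in Large White replicates 1, 2 and 3, against 5, 3 and 5 in Ningxiang replicates 1, 2 and 3. No treatment or genetic change is named in the labels, and they do not say whether a replicate is 1 pig. The p-values thus rest on the spread of these replicates, part of which may be technical.

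N6-methyladenosine (m6A) is a methyl mark placed on adenosines inside messenger RNA, and proteins that bind it affect splicing, translation and decay of the transcript. In muscle, actin filaments are the thin filaments that myosin pulls on. Tropomyosin lies along the filament and, with troponin, controls where myosin may bind. Cofilin severs and turns over filaments, cardiac alpha-actin is the main sarcomeric actin of the heart and is also made in developing skeletal muscle, and calponin 1 binds actin in smooth muscle.

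Each peak carries a fold, taken as the linear ratio of immunoprecipitated over input signal, and a p-value, printed here as its log10. Both belong to 1 peak in 1 list and were used to rank peaks within that list, not to compare breeds. Large White lists were 2214 to 2533 peaks long and Ningxiang lists 2034 to 2222. The lowest fold in a list was 1.53 to 1.55 and its median 2.420 to 2.605. The lists give no sequencing depth, and absence of a peak means only that the calling threshold was not reached, not that m6A was lacking. Of 9 skeletal muscle fibre markers with a curated transcript, 8 had a peak and 7 had one in all 6 lists, among them CKM, MYH1 and RYR1. ACTA1, the skeletal alpha-actin, had no peak. For scale, 3980 genes in RefSeq have a curated transcript and 2159 genes had a peak in any list. Marker lists of other cell types also held genes with peaks: 4 of 5 for smooth muscle and 2 of 5 for cardiac muscle. For endothelium it was 3 of 3, for adipocytes 4 of 5, for immune cells 2 of 3 and for fibroblasts 2 of 3. For satellite cells it was 1 of 1. The cardiac markers with a peak were TNNT2 and ACTC1, and the smooth muscle ones included CNN1 and DES. ACTC1 and CNN1 are among the 5 genes, and DES is a fibre marker too, so these counts do not show which cells were present. The part of other cells in the results was not tested.

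Every peak was listed on 1 curated transcript per gene, on build susScr11. TPM1 (NM_001097483) is on the minus strand of chromosome 1, from 108992911 to 109015950, and TPM2 (NM_001129947) on the same strand of chromosome 1, from 236402249 to 236409616. ACTC1 (NM_001170517) is on the plus strand of chromosome 1, from 136281119 to 136286549. CFL2 (NM_001025215) is on the plus strand of chromosome 7, from 65091127 to 65093451, and CNN1 (NM_213878) on the plus strand of chromosome 2, from 70183370 to 70190756. The RefSeq range of TPM1 on Sscrofa11.1 runs 5930 bp further at the 3′ end than this transcript, and that of CFL2 1070 bp further. Of the 24 RefSeq transcripts of TPM1, 1 is curated, so peaks on exons used by the others alone could not be listed. Exons are counted here from the 5′ end, which reverses the listed numbers on the minus strand: the listed exon 1 of TPM2 begins at 236402249, the 3′ end of the gene.

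TPM1, the tropomyosin of fast and cardiac muscle, had a single peak in each of the 6 lists, and it lay at the 5′ end of the transcript. All 6 peaks began 30 bp from the listed 5′ end, at 109015920. They ran through blocks of 163, 126 and 134 exonic bases, from the first exon on, into a block that lay in exon 4 of 10. The 3′ edge varied, and the exonic length was 535, 535 and 564 bases in Large White replicates 1, 2 and 3, against 475, 535 and 505 bases in Ningxiang replicates 1, 2 and 3. The lengths of the breeds overlapped, since 535 bases occurred in both. In Large White replicate 3 the peak reached 23 bases into exon 5, and elsewhere it ended in exon 4. Mean lengths were 545 ± 16.7 bases in Large White and 505 ± 30 bases in Ningxiang (SD, n = 3 each), a difference of 39.7 bases that an exact two-sided permutation test did not separate from the spread of replicates (p = 0.30, adjusted p = 1.00 over all 2159 genes).

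Peak edges are coarse, which limits how such lengths can be read. Between overlapping peaks that lie in 1 exon in different lists, 87.5% of 12823 nonzero edge differences fell within 1 base of a multiple of 30. The TPM1 lengths of 475, 505, 535 and 564 bases are therefore neighbouring steps of the same grid.

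TPM1 peaks were among the strongest of each list by p and low by fold. The log10 p was -4160, -4510 and -3670 in Large White replicates 1, 2 and 3, and -5170, -4970 and -4220 in Ningxiang replicates 1, 2 and 3. These placed TPM1 between rank 3 and rank 6 in every list. The folds were 1.85, 1.93 and 1.96 in Large White and 1.78, 1.90 and 2.05 in Ningxiang for the same peaks. By p TPM1 was at the top of the lists, and by fold it was between their 9.93rd and 23.4th percentile.

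TPM2, the beta-tropomyosin, had a peak over internal exons in all 6 lists and a further peak at its 3′ end in Large White lists alone. The peak found in all lists began 670 or 699 bp from the listed 5′ end. It covered 420, 450 and 361 exonic bases in Large White replicates 1, 2 and 3, against 421, 360 and 330 bases in Ningxiang replicates 1, 2 and 3, so its length overlapped between the breeds. Its 3′ edge moved from exon 5 in Ningxiang replicate 3 to exon 7 in Large White replicate 2 and Ningxiang replicate 1. Inside it, an exon block of 134 bases was followed by one of 118 bases. TPM1 also has a block of 134 followed by one of 118, which its peak covered in full in Large White replicate 3.

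The 3′ peak of TPM2 included the last base of the listed transcript in all 3 Large White lists. It covered 181, 151 and 121 exonic bases in Large White replicates 1, 2 and 3, and no Ningxiang list held a peak there. It lay at chromosome 1, 236402249 to 236404475, in replicate 1, where it crossed a junction to cover 32 bases of the exon before the last. In replicate 3 it ended at 236402369, within exon 10 of 10. The bases common to the 3 Large White lists numbered 121. Its folds were 1.87, 1.93 and 1.94, with a log10 p of -326, -268 and -208, at rank 49, 55 and 69.

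With both peaks counted, TPM2 had 2 peaks in each Large White list and 1 in each Ningxiang list, without overlap between the breeds (exact two-sided permutation p = 0.10, the smallest that 3 against 3 allows, adjusted p = 1.00). Over all 2159 genes, 2.50% had more peaks in every Large White list than in any Ningxiang list and 1.34% the reverse. The exonic sequence under TPM2 peaks came to 561 ± 68.7 bases in Large White and 370 ± 46.4 bases in Ningxiang (SD, n = 3 each), a difference of 191 bases (exact permutation p = 0.10, adjusted p = 0.935). Of the 631 exonic bases of TPM2 covered in any list, 47.7% were covered in all 6.

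**Figure D1:**
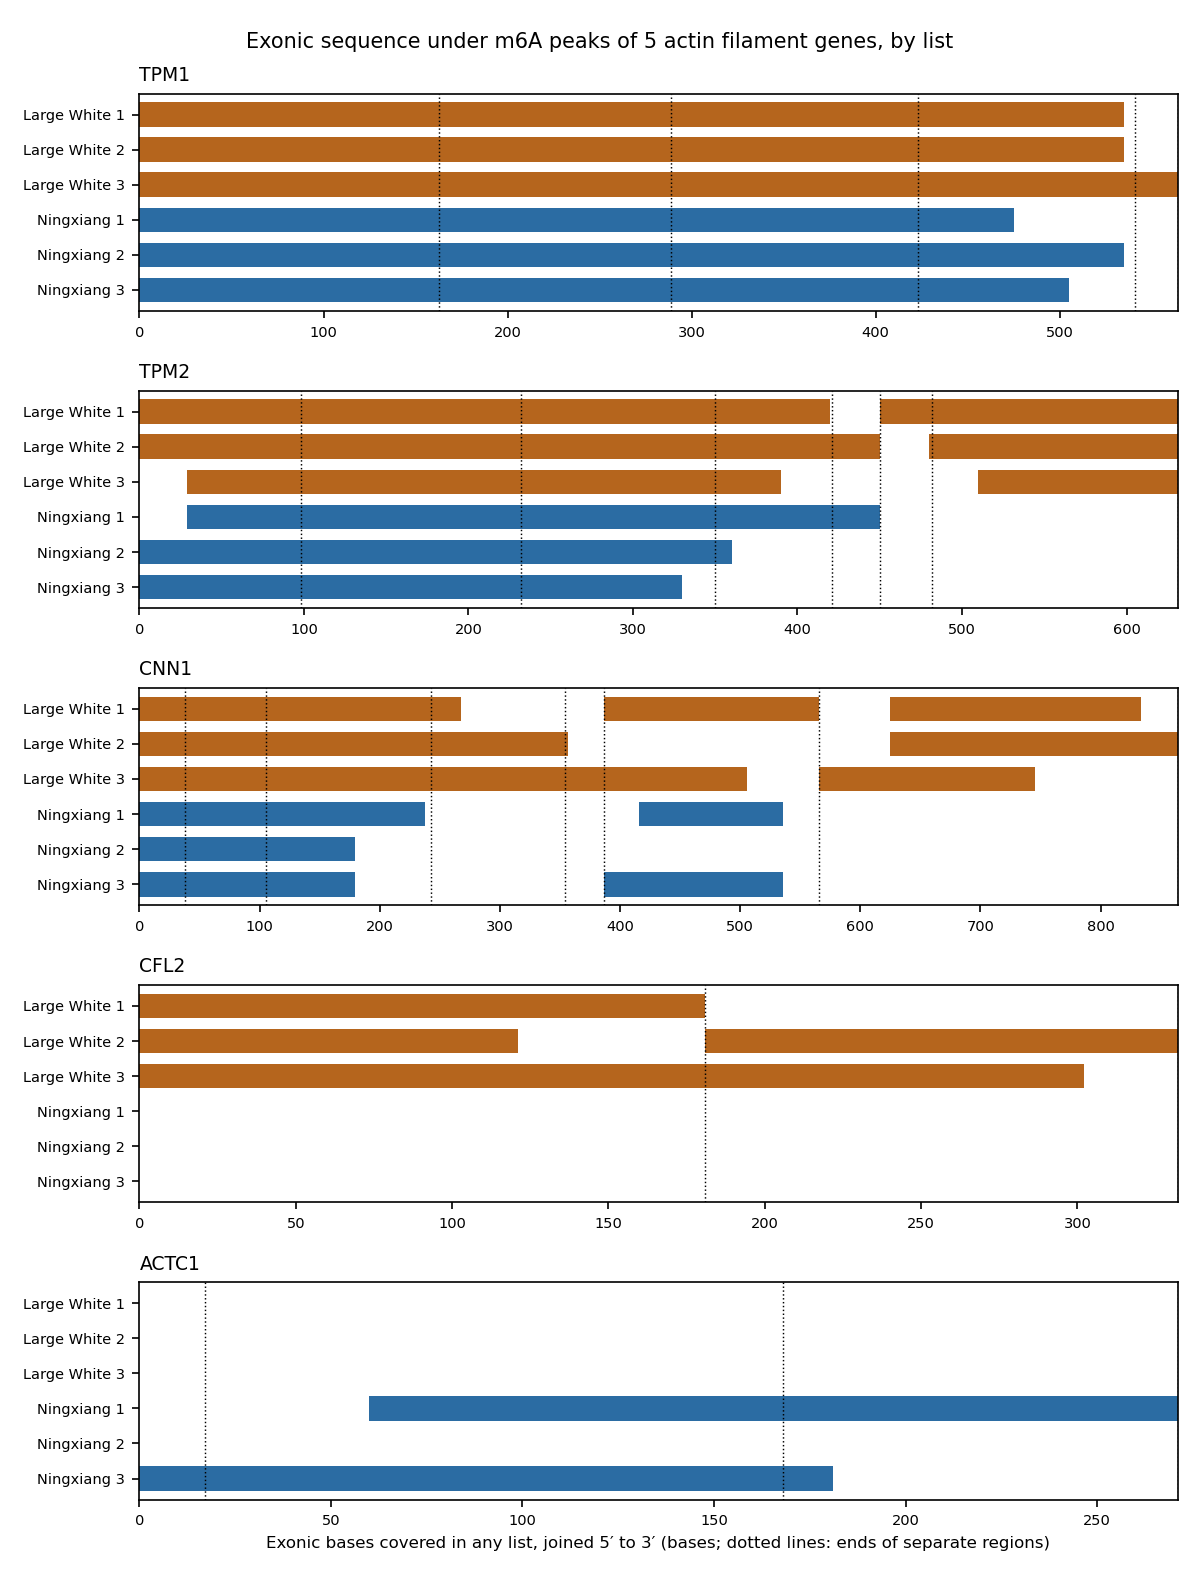
Exonic sequence under the peaks of each gene, 1 bar row per list, with Large White above Ningxiang. The x axis joins the exonic bases covered in any list in the 5′ to 3′ direction, dotted lines mark the ends of separate regions, and each gene has its own x scale. Bars of TPM1 coincide in all lists except at the 3′ edge, while the right-hand bars of TPM2 and CNN1 and all bars of CFL2 are present in the 3 Large White lists or some of them and in no Ningxiang list.

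ACTC1 had a peak in 2 Ningxiang lists and in no Large White list. In Ningxiang replicate 1 it spanned 136281934 to 136283306, covered 211 exonic bases and had its 5′ edge in exon 2 of 7. In Ningxiang replicate 3 it ran from 136281328 to 136283216, starting in the 5′ untranslated region and covering 181 exonic bases. The peaks shared 108 bases of the first exon block they have in common and 13 of the next, with a Jaccard index of 0.446 over exonic bases. Ningxiang replicate 2 had none.

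The ACTC1 peaks were strong by p and near the bottom by fold. Their log10 p was -388 and -359, at rank 26 and 38, and their folds were 1.70 and 1.73, at the 5.01st and 4.55th percentile of the lists. Peaks in 0 of 3 Large White and 2 of 3 Ningxiang lists gave p = 0.40 by Fisher's exact test (adjusted p = 1.00), and 2.45% of all genes had that split. In coding sequence ACTC1 is nearly identical to the skeletal and smooth muscle alpha-actins. How reads shared by these genes were assigned is not given in the sources used here, so the assignment of the ACTC1 peaks is uncertain. ACTA1 and ACTA2, the skeletal and smooth muscle alpha-actins, each have a curated transcript and had no peak in any list.

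CFL2 had peaks in 3 of 3 Large White lists and in no Ningxiang list. A peak in exon 2 of 4 began at 65091419 on chromosome 7 in each Large White list, and ended at 65091599, 65091539 and 65091599 in replicates 1, 2 and 3. It covered 181, 121 and 181 bases, of which 121 were common to all 3. A peak in the 3′ untranslated region began at 65092792 in Large White replicates 2 and 3 and covered 151 and 121 bases. Replicate 1 had no peak there.

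In exonic sequence CFL2 had 181, 272 and 302 bases under peaks in Large White replicates 1, 2 and 3, against 0 in every Ningxiang replicate. The mean was 252 ± 63.0 bases in Large White and 0 bases in Ningxiang (n = 3 each, exact permutation p = 0.10, adjusted p = 0.935). By presence alone, 3 of 3 lists against 0 of 3 gave p = 0.10 by Fisher's exact test (adjusted p = 1.00), and 1.34% of all genes had this split while 0.741% had its reverse. With the same number of peaks taken from every list, the counts over all genes were 23 for the split of CFL2 and 28 for its reverse, against 29 and 16 with the full lists. The exon 2 folds were 1.74, 1.79 and 1.95, and those in the 3′ untranslated region 1.81 and 1.72 in replicates 2 and 3. Of these 5 peaks, 4 were in the lowest 10% of their list by fold. By p they were stronger, at rank 265 to 413 with a log10 p of -30.1 to -49.8, where list medians were -9.395 to -11.00. Without the lowest 10% of each list by fold, CFL2 kept a peak in Large White replicate 3 alone.

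CNN1 had peaks in all 6 lists and, of the 5 genes, the largest difference in exonic bases between the breeds. CNN1 marks smooth muscle, and in whole muscle tissue fewer cells of a type and less RNA per cell cannot be told apart. Of the other smooth muscle markers, SMTN and DES had peaks in all 6 lists, TAGLN had 1 in Ningxiang replicate 3, and ACTA2 had none. DES also belongs to skeletal fibres.

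A first CNN1 peak began at 70185637 on chromosome 2, in exon 2 of 7, in all 6 lists. It covered 268, 357 and 387 exonic bases in Large White replicates 1, 2 and 3, against 238, 179 and 179 bases in Ningxiang replicates 1, 2 and 3. Every Large White peak was longer than every Ningxiang one, but the closest lengths, 268 and 238 bases, are neighbouring steps of the 30-base grid. Blocks of 38 and 67 bases were covered in full in all lists, and 74 bases of the next block. The fourth block, from 70189199 to 70189309, was entered over 25, 111 and 111 bases in the Large White lists and in no Ningxiang list. This first peak had folds of 2.15, 2.16 and 1.95 in Large White and 1.76, 1.76 and 1.84 in Ningxiang, with a log10 p between -80.6 and -177.

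A second CNN1 peak, in exon 7 of 7, was called in Large White replicates 1 and 3 and in Ningxiang replicates 1 and 3, so in 2 of 3 lists of each breed. It covered 179 and 119 bases in Large White, and 120 and 149 bases in Ningxiang, of which 90 bases were common to the 4 lists. Its folds of 1.84 and 1.62 in Large White and 1.58 and 1.68 in Ningxiang included the lowest of any peak on the 5 genes.

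Another CNN1 peak lay in the 3′ untranslated region and was called in all 3 Large White lists and in no Ningxiang list. It covered 209, 239 and 179 bases in Large White replicates 1, 2 and 3, between 70190459 and 70190756, and 120 bases were common to the lists. In replicate 2 it reached the last base of the transcript. Folds were 1.86, 2.02 and 1.90, with a log10 p of -41.2, -52.2 and -44.2.

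Together CNN1 had 656, 596 and 685 exonic bases under peaks in Large White replicates 1, 2 and 3, against 358, 179 and 328 bases in Ningxiang replicates 1, 2 and 3. The breeds did not overlap, with 646 ± 45.4 bases in Large White and 288 ± 95.9 bases in Ningxiang (SD, n = 3 each), a difference of 357 bases (exact permutation p = 0.10, adjusted p = 0.935). Peak number overlapped, with 3, 2 and 3 in Large White against 2, 1 and 2 in Ningxiang (exact permutation p = 0.30, n = 3 each, adjusted p = 1.00).

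**Figure D2:**
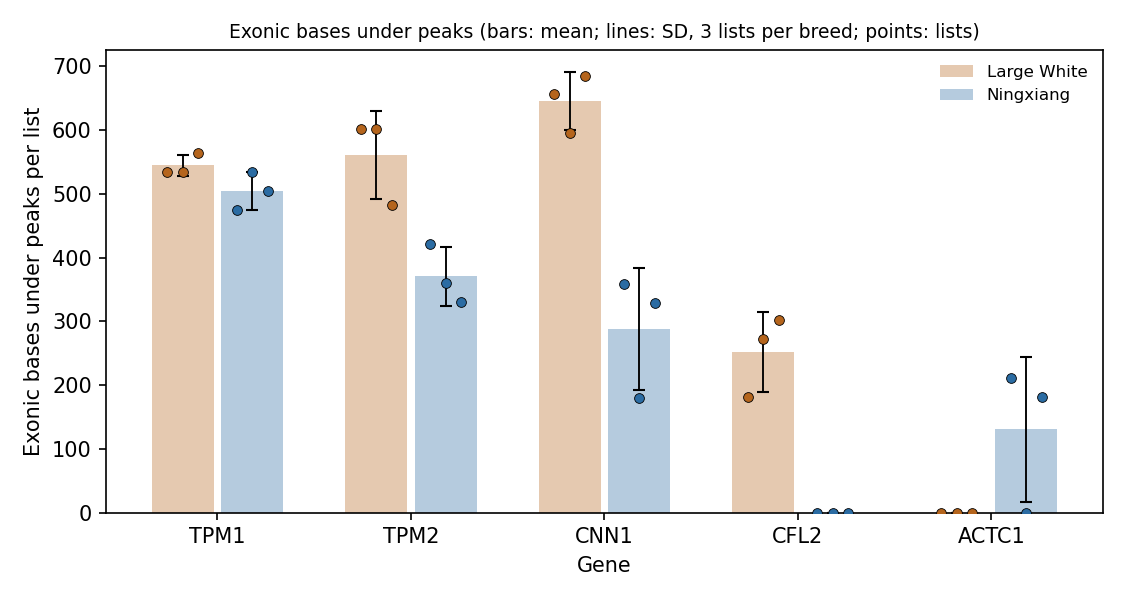
Exonic bases under peaks for each gene, with Large White left of Ningxiang. Points are lists, bars are means and lines are SD over 3 lists. The points of the breeds do not overlap for TPM2, CNN1 and CFL2, overlap for TPM1, and for ACTC1 are above 0 in 2 Ningxiang lists alone.

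Across the 5 genes, exonic sequence under peaks did not overlap between breeds for 3, TPM2, CNN1 and CFL2, each higher in Large White. Counted over genomic span, introns included, TPM2 overlapped between breeds, with a mean span of 5060 bp over Large White lists, against 3470 bp over Ningxiang lists (exact permutation p = 0.20, n = 3 each). In exonic bases the same absence of overlap, with Large White higher, held for 7.78% of all 2159 genes, and 2.92% did not overlap with Ningxiang higher. The mean was higher in Large White for 4 of the 5 genes, where 60.2% of all genes were higher, and higher in Ningxiang for ACTC1, where 37.8% were. The direction thus leaned the same way over all genes, as did list length. In no test did any of the 2159 genes reach p under 0.05, since 3 lists against 3 cannot go below 0.10, and the smallest adjusted p was 0.935.

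An exonic region with a peak in 3 of 3 Large White lists and none in Ningxiang was present in TPM2, CNN1 and CFL2, with 1, 2 and 1 such regions. Over all genes 5.00% had a region of that kind and 2.13% the reverse. In CNN1, 1 of the 2, from 70189199 to 70189309, was not a separate peak. It was the 3′ edge of the first CNN1 peak, which was called in every list of both breeds. In Large White replicate 1 this edge held 25 bases. The first peak covered 268 exonic bases there, against 238 in Ningxiang replicate 1, neighbouring steps of the 30-base grid. None of the 5 genes had a region in 3 of 3 Ningxiang lists and none in Large White. In TPM2 and CNN1 the region nearest the 3′ end was of the Large White kind, which held for 1.16% of all genes, with 0.695% for the reverse. This last comparison was chosen after the values were seen. Counted in bases, 392 of 2662 exonic bases in any list were covered in all 3 Large White lists and in no Ningxiang list. That was 14.7%, beside 1.76% of all covered bases. None were of the reverse kind, beside 0.658% of all covered bases. The 392 bases were 121 in TPM2, 150 in CNN1 and 121 in CFL2, and neighbouring bases share a peak. Of the 150 in CNN1, 120 lay under the peak in the 3′ untranslated region and the rest at the 3′ edge of the first peak. The 5 genes were chosen with earlier results of these data known, so their shares here and above are descriptions, not tests of enrichment.

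The genes differed in how well lists matched each other. For TPM1 the mean Jaccard index over exonic bases was 0.966 in Large White pairs, 0.924 in Ningxiang pairs and 0.928 in pairs between breeds. TPM2 had 0.836 in Large White pairs, 0.774 in Ningxiang pairs and 0.613 between breeds. CNN1 had 0.606 in Large White pairs, 0.606 in Ningxiang pairs and 0.370 between breeds. For TPM2 and CNN1 the mean between breeds thus lay below both means within a breed. Single pairs overlapped with those of Ningxiang. The highest value between breeds was 0.700 for TPM2 and 0.546 for CNN1, and the lowest Ningxiang pair 0.669 and 0.500. The lowest Large White pair, 0.802 and 0.593, lay above both. Each list enters several pairs, so these are descriptions.

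All 35 peaks had a fold below the median of their list and a p in the stronger 50% of it. Folds ran from 1.58 to 2.16, at the 0.590th to 31.2nd percentile, and 14 peaks were in the lowest 10%. By p the weakest was at 18.7% of its list. Of the 20 strongest peaks of each list by p, 18 were on genes other than these 5. The median fold of those 18 was 1.820 to 2.115 by list in Large White, against 1.910 to 2.285 in Ningxiang, and their highest fold was 3.75 to 5.64 in Large White, against 3.43 to 4.84 in Ningxiang. From 13 to 15 of the 18 were below the median fold of their list in Large White, and from 11 to 15 in Ningxiang. The abundance of the transcripts was not analysed here. Of the 7 peaks on CFL2 and ACTC1, 6 were in the lowest 10% of their list by fold, and the part of the calling threshold in the breed split of these genes was not tested. Without the lowest 10% of each list by fold, exonic bases averaged 606 in Large White and 59.7 in Ningxiang for CNN1, a difference of 546 bases (exact permutation p = 0.10, n = 3 each). For TPM1 the means became 545 in Large White and 347 in Ningxiang, and for CFL2 60.3 in Large White and 0 in Ningxiang. In Ningxiang CNN1 then had a peak in 1 list and TPM1 in 2. The removed first CNN1 peaks of Ningxiang replicates 1 and 2 had a fold of 1.76, beside cuts of 1.79 and 1.82. The removed TPM1 peak of Ningxiang replicate 1 had 1.78, beside 1.79. The 3′ region of TPM2 and both Large White regions of CNN1 stayed, and TPM2 overlapped between breeds in exonic bases, with means of 441 in Large White and 230 in Ningxiang (exact permutation p = 0.30, n = 3 each).

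**Figure D3:**
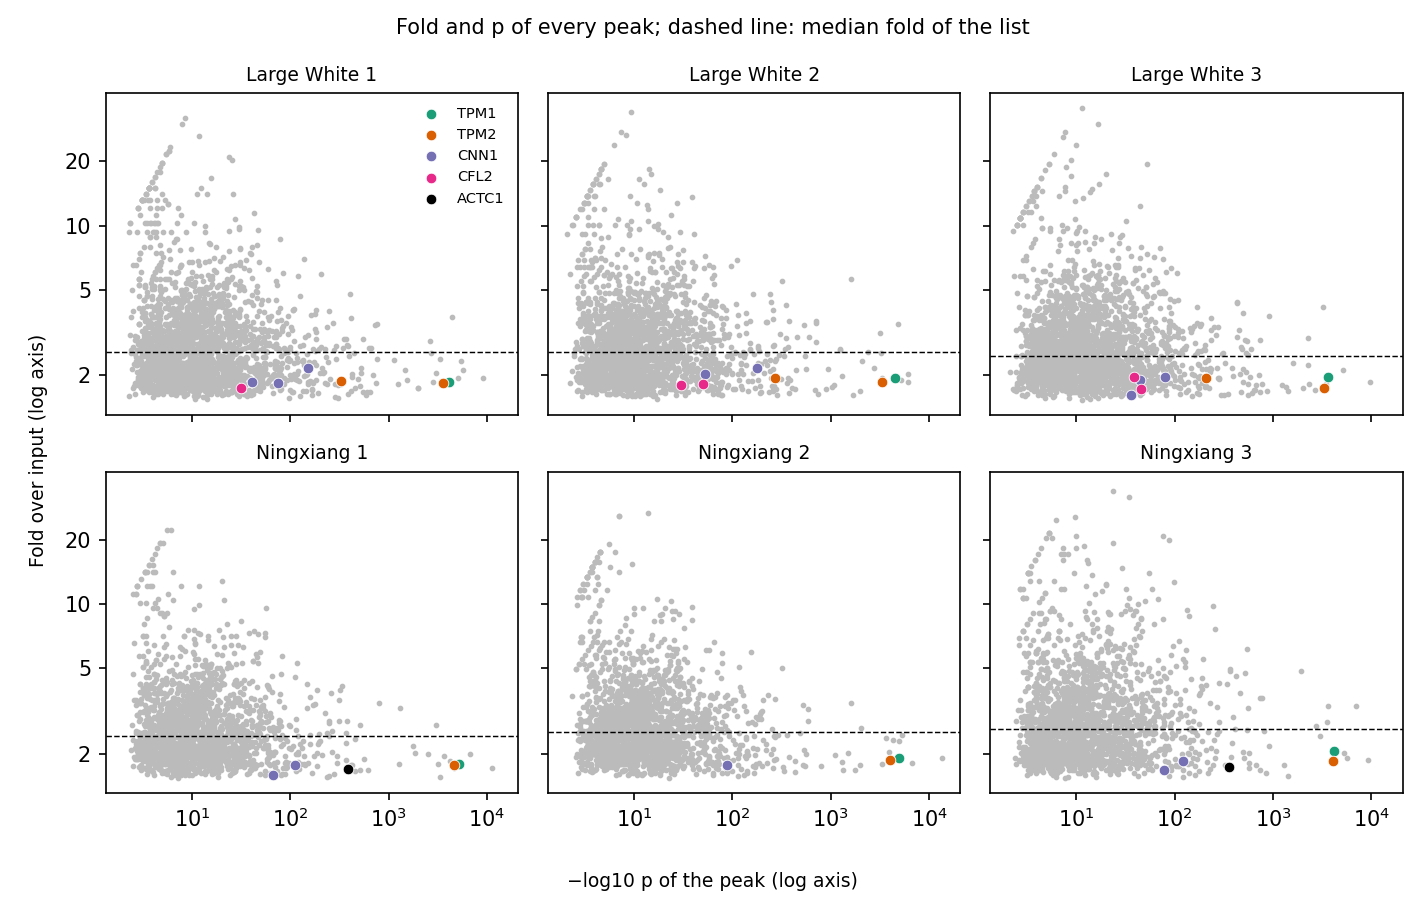
Fold over input against the −log10 p of every peak in each list, both on log axes, with Large White lists in the upper row and Ningxiang lists in the lower row. Grey points are all peaks, coloured points those of the 5 genes, and the dashed line is the median fold of the list. All 35 coloured points lie below the line, and TPM1 lies at the far right in every list, between rank 3 and rank 6 by p.

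Of 77 other genes in lists of actin filament function, 35 have a curated transcript that could carry a peak, 25 had one and 14 had one in all 6 lists. RefSeq holds 3980 genes with a curated transcript, and 2159 genes had a peak in any list. Of those 2159, 35.7% had one in all 6. The lists were drawn up with earlier results of these data known. None of the 25 split as CFL2 did, with a peak in every list of 1 breed and in none of the other, where 1.34% of all genes had peaks in every Large White list alone and 0.741% in every Ningxiang list alone. For exonic bases, 2 of the 25, ARPC2 and ABRA, were higher in every Large White list, beside 7.78% of all genes, and none was higher in every Ningxiang list, beside 2.92% of all genes. ARPC2, a subunit of the complex that branches actin filaments, had a mean of 493 exonic bases in Large White and 365 in Ningxiang. ABRA, which promotes actin-dependent gene activation in striated muscle, had 845 in Large White and 600 in Ningxiang.

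Among the tropomyosins TPM4, a form of non-muscle cells, had 1 peak in every list, with best folds of 1.77 to 2.98, and TPM3 had none. CFL1, the non-muscle cofilin, had peaks in all 6 lists with best folds of 2.28 to 2.55, where CFL2 had them in Large White alone. PFN1, profilin, which loads actin monomers for assembly, reached folds of 2.88 to 5.14 in all 6 lists. DSTN, another severing protein, had no peak. In each Large White list the best folds of CFL1 and PFN1 were above that of CFL2.

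At filament ends TMOD4, the skeletal muscle tropomodulin that caps the pointed end, had best folds of 1.87 to 2.51. CAPZA1 and CAPZB, subunits of the barbed-end cap, had 1.55 to 2.66 and 2.0 to 2.75. TMOD3 had peaks in 1 Large White and 2 Ningxiang lists. Among nucleators WASF2 had 2.82 to 4.50, DIAPH1, a formin, 2.60 to 4.35 and ARPC2 2.53 to 4.17. Other subunits and relatives of the branching complex were less regular, with ARPC1A in 1 Large White and 2 Ningxiang lists, ACTR2 in 2 and 3, ARPC3 and ACTR3 in 1 Large White list each, and ARPC1B in 1 Ningxiang list.

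ACTN1 and ACTN2, alpha-actinins that crosslink actin, ACTN2 at the Z-disc, had best folds of 2.65 to 4.36 and 1.76 to 1.96 in all 6 lists. Of the troponins, TNNT2 had 3.30 to 4.63 and TNNT3 1.71 to 2.82 in all 6 lists. TNNT1 had peaks in 3 Large White and 2 Ningxiang lists, TNNI2 in 3 and 1, and TNNI1 in 1 and 0. ABRA had best folds of 1.85 to 2.23 in all 6 lists, and MYOCD, a coactivator of smooth muscle genes, had a peak in Ningxiang replicate 3 alone.

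**Figure D4:**
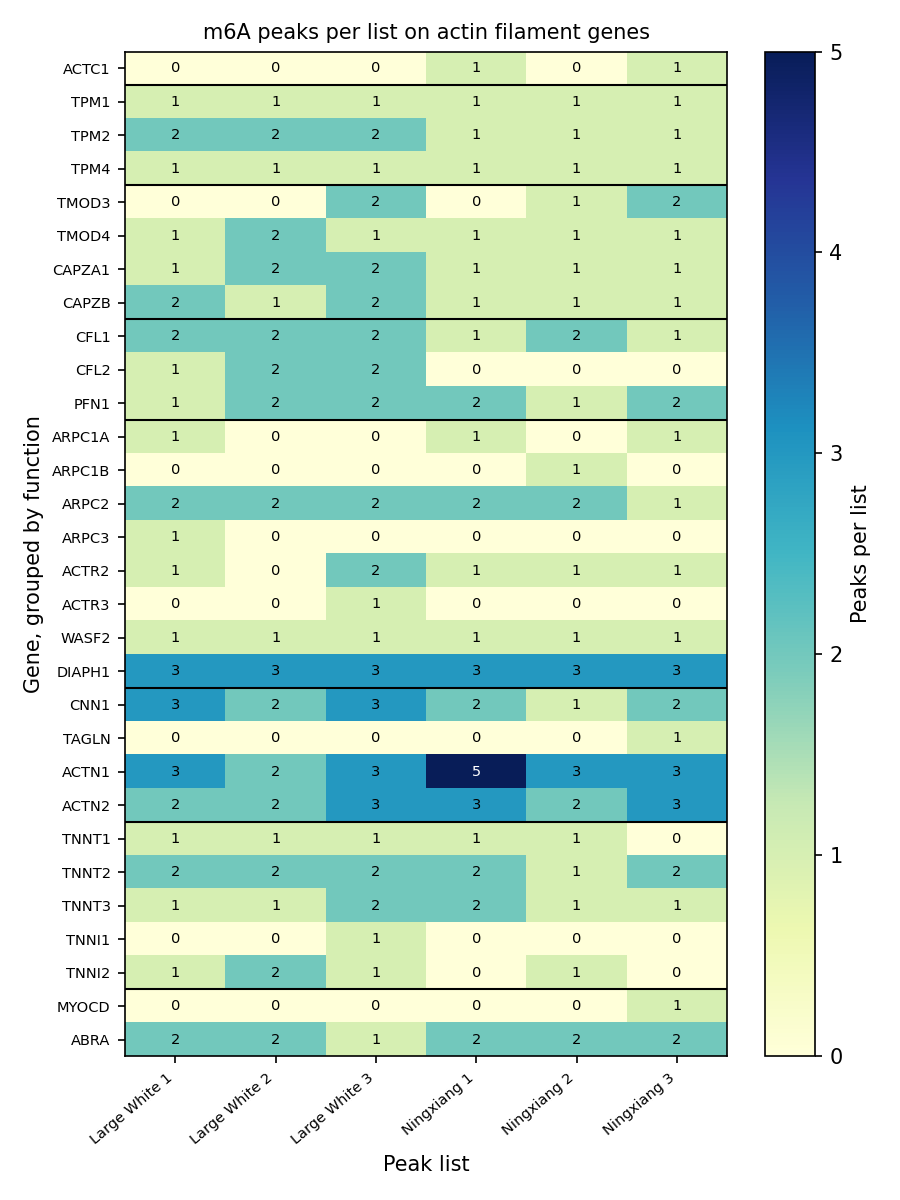
Peaks per list on the 30 actin filament genes with a peak, with Large White columns left of Ningxiang columns and lines between groups of genes by function. Colour and number give the peaks per list, from 0 to 5. CFL2 alone has peaks in all lists of one breed and none of the other.

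The genes most like each member were found among those with a peak in the same lists, by the root mean square difference of log2 best fold over those lists. For TPM2, out of 770 genes, these were ACTN2, MYBPH and CKM, at 0.0387, 0.0426 and 0.0455 over 6 lists. For TPM1, also out of 770, they were MAP2K2, RPS3 and TPM2, at 0.0638, 0.0643 and 0.0653. For CNN1 they were RBM4, CAPNS1 and FABP4, at 0.0631, 0.0679 and 0.0766. CFL2 shared its lists with 28 genes, of which EIF4A3, SUMO2 and CAPN2 were nearest, at 0.108, 0.146 and 0.147 over 3 lists. ACTC1 shared its lists with 24 genes, of which PNPLA2, FLOT1 and RSRP1 were nearest, at 0.0698, 0.120 and 0.167 over 2 lists. TPM2 was thus nearest to muscle genes by best fold, and with so few lists the order of neighbours rests on small differences.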

How the data were processed

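The members and gene lists were chosen with earlier results of these data known. m6A was mapped in 12 samples, 6 immunoprecipitated and 6 input, and the authors deposited 1 peak list per replicate. Per the labels' protocols, mRNA was purified, fragmented and enriched with an m6A antibody. ChIPseeker 1.30.2, HOMER and FastQC 0.11.9 appear in the submitters' processing notes, with build susScr11. Which aligner and which peak caller were used is not given in the sources used here. Per the file headers, each peak has a fold, a linear ratio over input, a p-value and its log10, a score used for ranking. A list was taken for the immunoprecipitated sample whose description names it. Starts count from 0 and are printed after adding 1.

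Exonic bases were summed over the blocks of each peak, merged within a gene and list. Peak number and exonic bases were compared with exact two-sided permutation tests and presence with Fisher's exact test, for all 2159 genes with Benjamini-Hochberg adjustment (Python 3.11.15, pandas 2.3.3, NumPy 2.4.6, SciPy 1.17.1, matplotlib 3.10.9). Regions shared by lists overlap by 1 bp or more. The code of the permutation test was run on simulated peak numbers with planted, non-overlapping breed differences. That checks the code alone, not Fisher's test or the results. All 5 members are named in full, with the 3 genes most like each. Of the other lists, genes with a peak in all 6 lists are given with values. Alternatives were the stronger 50% by p, equal list length, gene by overlap, genomic span, merging within 100 bp, each replicate left out, replicate blocks and, added after seeing the data, removal of the lowest 10% by fold. Sequences were not analysed here.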

Additional observations from a re-analysis of the deposited data

How the results depend on the processing

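Keeping 50% of every list, the stronger by p, or 2034 peaks of each, could not remove a peak of the 5 genes, the weakest of which was at rank 420. Of 143 values for the 5 genes under the other settings, apart from the removal by fold, 142 kept their direction or, where they have none, stayed close to the reported value. No test here can reach p under 0.05, so this says nothing of significance. The exception was the Large White best fold of TPM2, which is 1.91 for the highest fold and 1.81 for the peak with the lowest p. Some of the 143 values could not move either. The replicate block changes the p alone, and no peaks of the same gene and list lay within 100 bp of each other. CFL2 and ACTC1 had no peak in any list of the other breed, so leaving out a replicate could not turn their direction. Without the lowest 10% of each list by fold, a setting chosen after seeing the data, 14 of 25 values changed by over 1.5 times or became or left 0, and the cause was not tested. Those that became or left 0 numbered 8. ACTC1 then had no peak in any list, so its differences became 0 bases, 0 peaks and 0 points in the share of lists. CFL2 kept 0 regions particular to 3 Large White lists. The share of lists with a peak then differed by 66.7 points for CNN1, 33.3 for TPM1 and 33.3 for TPM2, and peak number of TPM1 by 0.333, all Large White minus Ningxiang. Of the 6 that kept their direction but not their size, exonic bases differed by 60.3 for CFL2 (252 with the full lists), 198 for TPM1 (39.7) and 546 for CNN1 (357), peak number by 0.333 for CFL2 (1.67) and 2.0 for CNN1 (1.0), and the share of lists by 33.3 points for CFL2 (100). With 1 replicate left out at a time, the exonic difference ran from 24.7 to 54.7 bases for TPM1, 171 to 231 for TPM2, 303 to 392 for CNN1, 226 to 287 for CFL2 and -196 to -90.5 for ACTC1. Genes higher in every Large White or every Ningxiang list by exonic bases numbered 168 and 63. They numbered 138 and 66 at equal list length, and 102 and 26 with the stronger 50% by p. Genes with peaks in 3 of 3 Large White and 0 of 3 Ningxiang lists numbered 29, 23 at equal list length and 24 with the stronger 50%. Those with peaks in 3 of 3 Ningxiang and 0 of 3 Large White lists numbered 16, 28 at equal list length and 9 with the stronger 50%.

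The replicate block gave an exact p of 0.25 for the exonic bases of TPM2, CNN1 and CFL2, the smallest that sign changes within 3 pairs allow. Deviations of same-numbered lists correlated at 0.0425, 0.0506 and 0.0222 over all genes, and those of lists with other numbers between -0.0945 and 0.0514. These values cannot settle whether equal numbers mark paired samples. Motif density was not run, because no genome sequence was used here.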
